A study of Mus musculus with 8 samples.

Results

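MHC class II molecules display peptides from extracellular proteins to CD4+ T cells. The 10 genes described here encode that pathway: the classical chains H2-Aa, H2-Ab1 and H2-Eb1, the peptide editor H2-M (H2-DMa, H2-DMb1 and H2-DMb2), its inhibitor H2-O (H2-Oa and H2-Ob), the invariant chain Cd74 and the transactivator Ciita. They were taken by symbol from the 55414 genes in the table, all 10 were listed there, and 9 had enough counts to be tested. They were measured by bulk RNA-Seq in tumors that the PyMt cell line formed in the mammary fat pad of WT female C57BL/6 mice, 6 to 8 weeks old. The line was made from a tumor of the MMTV-PyMt strain, itself C57BL/6. In that strain the viral promoter MMTV drives the polyoma middle T oncogene in mammary epithelium. The same line was implanted in both groups, so all tumors derive from 1 cell line. The calcipotriol group (4 tumors, replicates 1, 5, 6 and 7) received 20 nmol of calcipotriol, a vitamin D analog, on the skin over the tumor every 2 days from 2 days after implantation, and the EtOH group (4 tumors, replicates 1 to 4) received the solvent alone. The interval from the final application to tumor collection was 24 hours.

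As background, α and β chains of class II pair in the endoplasmic reticulum with the invariant chain, which blocks the groove and carries them to endosomes. There the invariant chain is cut down, H2-M exchanges its last fragment for an antigenic peptide, and H2-O restrains H2-M. Class II is made constitutively by dendritic cells and B cells, is inducible in macrophages, and can be induced by interferon-γ in many other cell types. In all of these, transcription depends on CIITA, a coactivator that does not bind DNA itself but docks on factors bound to shared promoter elements, the X box (RFX and CREB family) and the Y box (NF-Y). Mice of the H2b haplotype, such as C57BL/6, make no functional H2-E α chain, so their H2-Eb1 product lacks its partner at the cell surface.

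The shared promoter elements could be seen in the members' own promoters. RefSeq promoters (GRCm38.p6, 250 bases before to 50 after the start) were held for 7 of the 10 genes. The letters searched for the X box were AAC, any 3 bases and TGATG. Those for the Y box were TGATTGG, and those for the cyclic AMP response element TGACGTCA. They were chosen after the members' promoters had been read. For the shares over all promoters, both strands were searched. The X form was in 0.615% of 32851 promoters, the Y form in 7.82% and the cyclic AMP element in 1.79%. An X form followed within 30 bases by a Y form occurred in 6 promoters, or 0.0183%. These were H2-Eb1, H2-DMb1, H2-DMb2, H2-Ob, Cic and 1700048F04Rik, and the X and Y forms did not overlap in any of the 4 members. For single members only the gene's own strand was read. On it, the H2-Aa promoter held the Y form and a cyclic AMP element, and H2-Oa held the Y form alone. Neither promoter listed for H2-DMa held any of the 3 on its own strand. The windows below show an X form before a Y form for a classical β chain, a subunit of the editor and a subunit of its inhibitor, and a cyclic AMP element before a Y form for the classical α chain, with the searched letters in capitals and each gene read 5′ to 3′ on its own strand. They lie at chr17:34287855-34287909 (H2-Aa, reverse strand), chr17:34305766-34305824 (H2-Eb1, forward), chr17:34145116-34145175 (H2-DMb2, forward, in an intron of the longer GENCODE gene model) and chr17:34238808-34238864 (H2-Ob, forward).
H2-Aa: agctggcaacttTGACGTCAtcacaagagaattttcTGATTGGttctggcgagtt
H2-Eb1: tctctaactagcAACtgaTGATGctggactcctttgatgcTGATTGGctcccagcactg
H2-DMb2: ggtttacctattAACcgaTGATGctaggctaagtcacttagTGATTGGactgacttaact
H2-Ob: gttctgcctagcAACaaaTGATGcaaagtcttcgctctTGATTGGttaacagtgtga
A match is a description of the letters and not a measured binding site.

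The libraries held 19685397 to 25084715 counts, and 3 counts corresponded to 0.119 to 0.146 CPM (counts normalized for TMM-adjusted library size). Not all tumors of a group were alike. Over the 14458 tested genes, log2 CPM of calcipotriol replicate 1 correlated with replicates 5, 6 and 7 at r = 0.931 to 0.945, while those 3 correlated with each other at 0.958 to 0.977. The EtOH tumors fell into the pairs 1 and 2 (r = 0.959) and 3 and 4 (r = 0.958), with 0.919 to 0.934 between the pairs. The labels call the cell type epithelial, but the epithelial markers (summed 600 to 1320 CPM) stood beside macrophage markers (1570 to 4890 CPM), fibroblast markers (1200 to 3400 CPM) and erythroid genes (434 to 5830 CPM). The counts therefore come from whole tumors. Past both thresholds, 5 of 5 erythroid genes and 3 of 6 endothelial markers (summed 144 to 309 CPM with EtOH and 54.7 to 117 CPM with calcipotriol) were lower with calcipotriol, and their part in the class II levels was not tested. In bulk tumors, fewer cells that carry class II and less class II RNA per cell cannot be told apart.

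The class II genes were lower in 3 of the 4 calcipotriol-treated tumors than in any EtOH-treated tumor and highest in the fourth, calcipotriol replicate 1. This held for H2-Aa, H2-Ab1, H2-Eb1, H2-DMa, H2-DMb1, Cd74 and Ciita. With all 8 tumors, 0 of the 9 tested members passed both thresholds (an adjusted p below 0.05 and a log2 change of 1 or more in either direction, edgeR quasi-likelihood test), against 2.02% of all tested genes, of which 0.948% were lower. Of the 9, 1 (H2-Ob) had an unadjusted p under 0.05, as did 18.4% of all genes. DESeq2 and limma-voom also passed 0 members, with 1 and 4 at an unadjusted p under 0.05. DESeq2 gave no p-value for H2-Ab1, H2-Eb1 and H2-DMa, so these could not pass there. The falls in log2 from limma-voom were larger than those from edgeR for H2-Aa (-1.38 against -0.47), H2-Ab1 (-1.72 against -0.68) and H2-Eb1 (-1.35 against -0.36). This was also so for Cd74 (-1.82 against -0.75), H2-DMb1 (-0.65 against -0.32), H2-DMb2 (-1.04 against -0.52) and H2-Ob (-2.59 against -2.2). The adjusted p-values of these genes were 0.199 to 0.60 in limma-voom. H2-DMa (-1.401 against -1.001) had the smallest limma-voom p of the 9 (unadjusted p = 0.00745, adjusted p = 0.109). Without calcipotriol replicate 1, 6 of the 9 were lower past both thresholds (H2-Aa, H2-Ab1, H2-Eb1, H2-DMa, H2-DMb1 and Cd74), and 2.70% of all 14839 genes then tested were lower, or 4.33% in either direction. In 8 of the 9, every remaining calcipotriol tumor was then below every EtOH tumor, as in 12.0% of all genes. Replicate 1 was singled out after its values had been seen, and leaving out the tumor farthest from its group narrows the spread, so the p-values without it are not independent evidence of a fall.

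**Figure D1:**
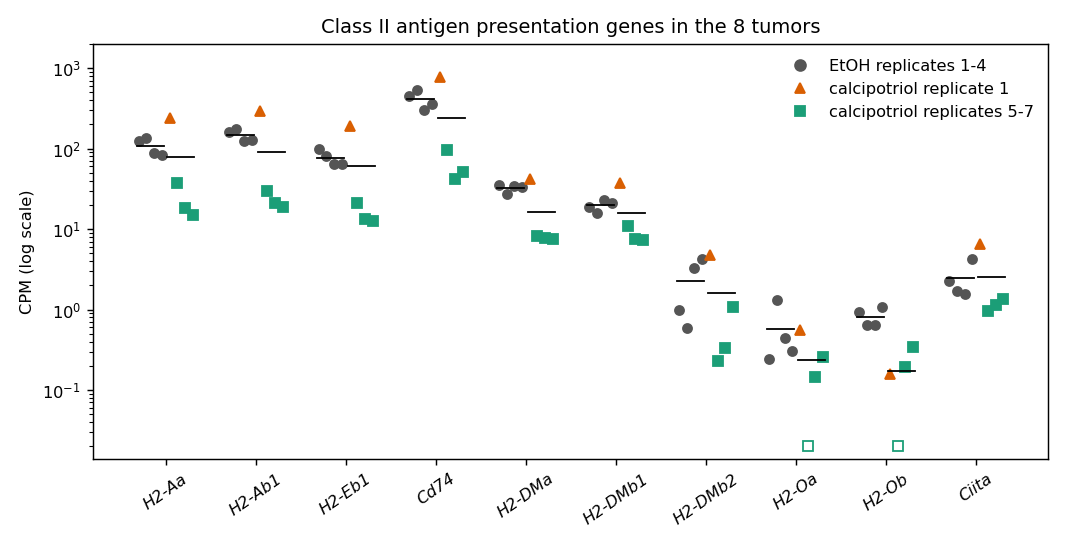
CPM on a log axis of the 10 class II genes in each tumor, with EtOH replicates 1 to 4 as circles, calcipotriol replicate 1 as triangles, calcipotriol replicates 5 to 7 as squares and each group's mean as a line. Open squares at the bottom are tumors with 0 counts. Cd74 is the most abundant, with 300 to 530 CPM in EtOH tumors, and the triangle lies above the EtOH circles for every gene but H2-Oa and H2-Ob.

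The classical chains form the peptide-binding H2-A molecule (H2-Aa and H2-Ab1) and the β chain of H2-E (H2-Eb1). Their genes lie within the MHC on chromosome 17 (GENCODE M21, GRCm38), at chr17:34282744-34287823 on the reverse strand for H2-Aa, chr17:34257689-34269419 for H2-Ab1 and chr17:34305867-34316674 for H2-Eb1. H2-Aa was at 125, 135, 87.5 and 84.0 CPM in EtOH replicates 1 to 4 and at 240, 37.3, 18.5 and 14.9 CPM in calcipotriol replicates 1, 5, 6 and 7. The 4 EtOH tumors lay between the single high and the 3 low calcipotriol tumors, so the groups overlapped. The log2 fold change was -0.47 ± 0.746 (standard error, SE, edgeR adjusted p = 0.787) with all tumors and -2.19 ± 0.327 (SE, edgeR adjusted p = 0.00478) without replicate 1.

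H2-Ab1, the β chain of H2-A, was at 159, 177, 125 and 127 CPM with EtOH and at 295, 30.1, 21.0 and 18.7 CPM with calcipotriol. The order of the tumors was like that of its partner H2-Aa, with replicate 1 2.01-fold above the EtOH mean and the mean of the other 3 6.31-fold below it. Its log2 fold change was -0.68 ± 0.782 (SE, edgeR adjusted p = 0.694) and, without replicate 1, -2.66 ± 0.216 (SE, edgeR adjusted p = 0.000268). H2-Eb1 was at 98.7, 80.5, 65.0 and 65.3 CPM with EtOH and at 193, 21.3, 13.3 and 12.7 CPM with calcipotriol, so it was transcribed in the same tumors although C57BL/6 cells lack its α chain partner. H2-Eb1 had a log2 fold change of -0.36 ± 0.773 (SE, edgeR adjusted p = 0.847) and, without replicate 1, -2.29 ± 0.24 (SE, edgeR adjusted p = 0.000838). The pseudogene H2-Ea-ps was at 0 counts in all 8 tumors and the further β chain gene H2-Eb2 had counts in 1 tumor only (0.0973 CPM in EtOH replicate 1).

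The invariant chain Cd74, the chaperone of class II, is encoded outside the MHC, at chr18:60803848-60812652. Cd74 was at 449, 530, 300 and 357 CPM with EtOH and at 784, 97.1, 42.5 and 50.8 CPM with calcipotriol. The tumors again fell in 3 levels, and the low calcipotriol tumors had at most 97.1 CPM against at least 300 CPM with EtOH. Its log2 fold change was -0.75 ± 0.8 (SE, edgeR adjusted p = 0.673) with all tumors and -2.69 ± 0.319 (SE, edgeR adjusted p = 0.00167) without replicate 1.

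H2-M, which loads peptides onto class II, is a dimer of the H2-DMa product with a β chain from H2-DMb1 or H2-DMb2. H2-DMa (chr17:34119541-34139101) was at 34.9, 27.3, 34.6 and 33.5 CPM with EtOH and at 41.4, 8.27, 7.64 and 7.63 CPM with calcipotriol. It had the smallest excess in replicate 1 of the members highest there, 1.27-fold over the EtOH mean, and its 3 low tumors differed little from each other. The log2 fold change was -1.001 ± 0.517 (SE, edgeR adjusted p = 0.333) with all tumors and -2.05 ± 0.167 (SE, edgeR adjusted p = 0.000268) without replicate 1. In GENCODE, 10.4% of its exon bases overlap exons of Brd2 on the other strand, and Brd2 had 36330 counts over all tumors. No strand setting is stated, so reads from that stretch cannot be told apart.

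H2-DMb1 (chr17:34153072-34160230) was at 19.0, 15.7, 23.3 and 20.9 CPM with EtOH and at 37.5, 10.8, 7.50 and 7.21 CPM with calcipotriol. Its low tumors were 2.32-fold below the EtOH mean, a smaller difference than the 4.15-fold of H2-DMa. The log2 fold change was -0.32 ± 0.479 (SE, edgeR adjusted p = 0.773) with all tumors and -1.21 ± 0.223 (SE, edgeR adjusted p = 0.0124) without replicate 1. H2-DMb2 (chr17:34143307-34151555) had few counts, at 0.973, 0.584, 3.32 and 4.23 CPM with EtOH and 4.73, 0.228, 0.336 and 1.06 CPM with calcipotriol. Its EtOH tumors alone ranged from 0.584 to 4.23 CPM, and it did not pass with replicate 1 (log2 fold change -0.52, adjusted p = 0.823 from edgeR) or without it (-2.06, adjusted p = 0.22). The principal transcripts of the pair were identical at 75.0% of aligned bases and shared 13.7% of the 100-base windows of H2-DMb1, so the split of reads between them is uncertain. With their counts summed, the log2 fold change was -0.34 (adjusted p = 0.769 from edgeR) and, without replicate 1, -1.28 (adjusted p = 0.0111).

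H2-O did not show these 3 levels. H2-Ob, the β subunit of this inhibitor of H2-M (chr17:34238903-34254414), had 19, 13, 16 and 24 counts in the EtOH tumors against 4, 0, 4 and 8 in calcipotriol replicates 1, 5, 6 and 7. Here replicate 1 was as low as the other calcipotriol tumors, and the groups did not overlap, as for 6.16% of all tested genes in this direction. The log2 fold change was -2.20 ± 0.898 (SE, edgeR unadjusted p = 0.0332, adjusted p = 0.228), so H2-Ob did not pass the adjustment. The two-sided exact permutation p of its log2 CPM was 0.0286, the smallest that 4 against 4 tumors allow. H2-Oa, the α subunit (chr17:34092340-34095234), had 5, 27, 11 and 7 counts with EtOH and 14, 0, 3 and 6 with calcipotriol, too few to be tested, and its groups overlapped. H2-O is known mainly from B cells and thymic epithelium. The B cell gene Ms4a1 reached no more than 11 counts per tumor. Cd79a, part of the B cell receptor complex, had 14, 8, 12 and 14 counts with EtOH and 0, 1, 0 and 3 with calcipotriol. Not all markers of this list had that direction. Pax5 had 9, 0, 6 and 0 counts with EtOH and 2, 5, 11 and 20 with calcipotriol. Jchain had 4, 0, 43 and 26 counts with EtOH and 129, 0, 14 and 7 with calcipotriol replicates 1, 5, 6 and 7. Of the 8 B and plasma cell markers, 1 was tested (Jchain, not called) and 1 was at 0 in all tumors, and their summed level was 1.46 to 3.84 CPM with EtOH and 0.685 to 5.52 CPM with calcipotriol. Their part in the H2-Ob counts was not tested.

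Ciita (chr16:10480059-10528418), which sets class II transcription, was at 2.29, 1.70, 1.58 and 4.23 CPM with EtOH and at 6.59, 0.959, 1.15 and 1.36 CPM with calcipotriol. Replicate 1 had the highest value of the 8 tumors and the other 3 calcipotriol tumors the lowest. Their separation from the EtOH tumors was narrow, 1.36 against 1.58 CPM. The log2 fold change was 0.04 ± 0.673 (SE, edgeR adjusted p = 0.982), with a negative sign in limma-voom (-0.26), without EtOH replicate 2 (-0.10), without EtOH replicate 3 (-0.12) and without calcipotriol replicate 1 (-1.08, adjusted p = 0.295). Ciita did not pass in any of these fits, and it had 21 to 166 counts per tumor. In GENCODE, 3.45% of its exon bases overlap exons of Dexi on the other strand, and Dexi had 3935 counts over all tumors. With no strand setting stated, reads from that stretch cannot be told apart. Of the 7 genes for the factors that CIITA docks on (Rfx5, Rfxap, Rfxank, Nfya, Nfyb, Nfyc and Creb1), 0 passed both thresholds with or without replicate 1, with 0 and 1 at an unadjusted p under 0.05. Their summed level was 194 to 234 CPM with EtOH and 206 to 235 CPM with calcipotriol. Rfx5, the DNA-binding subunit of RFX, was at 15.1, 16.5, 10.7 and 7.37 CPM with EtOH and 13.4, 18.8, 17.8 and 21.7 CPM with calcipotriol (log2 fold change 0.53, adjusted p = 0.314 from edgeR).

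**Figure D2:**
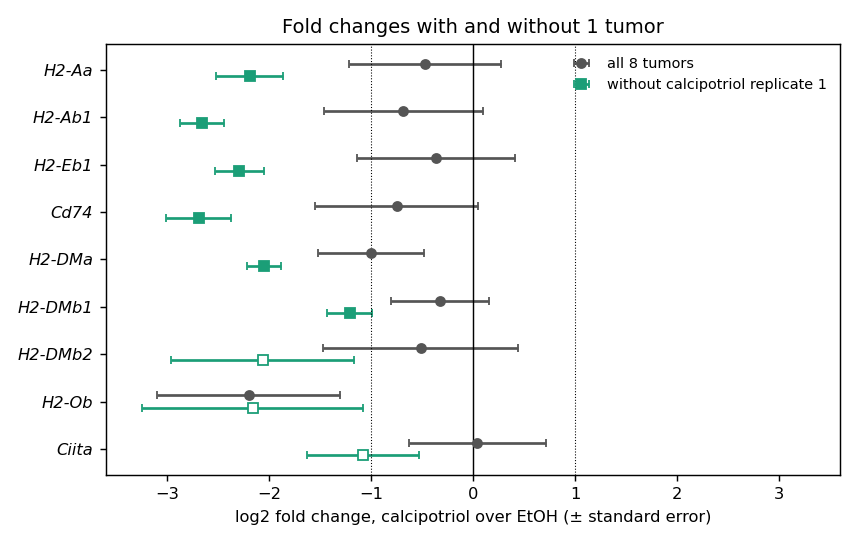
Log2 fold change of calcipotriol over EtOH with its standard error for the 9 tested genes, with all 8 tumors (circles) and without calcipotriol replicate 1 (squares, filled where both thresholds were passed). Dotted lines mark a change of 1. The standard errors of H2-Aa, H2-Ab1, H2-Eb1 and Cd74 shrink from 0.746 to 0.8 with all tumors to 0.216 to 0.327 without that tumor.

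Per kilobase of principal transcript, the scale on which genes can be compared, Cd74 was the most abundant member in EtOH tumors at 290 ± 71.8 CPM per kilobase (SD, n = 4). H2-Ab1 followed at 121 ± 21.1 and H2-Aa at 95.6 ± 22.9. Their spreads over tumors overlap, but within each EtOH tumor H2-Aa was below H2-Ab1, at 0.713 to 0.843 of its level. H2-Eb1 came next at 46.4 ± 9.57. The editor genes were lower, H2-DMa at 19.7 ± 2.15 and H2-DMb1 at 14.0 ± 2.27. H2-DMb2 (1.60 ± 1.25), H2-Oa (0.531 ± 0.458), Ciita (0.408 ± 0.204) and H2-Ob (0.306 ± 0.0786) came last. Neighbors within these 4 did not differ beyond their spread over tumors. Cd74 made up 36.6% to 52.2% of the summed level of the 10 genes and H2-Ab1 16.3% to 21.7%, across tumors whose H2-Ab1 level per kilobase ran from 15.4 to 244 CPM.

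Ratios between members were also compared in each tumor. The groups did not overlap in 3 of 6 ratios on the per-kilobase scale. Cd74 per H2-Ab1 was 2.07 to 2.57 with EtOH and 1.74 to 2.77 with calcipotriol, which overlapped. H2-Aa per H2-Ab1 was 0.843, 0.818, 0.755 and 0.713 with EtOH and 0.872, 1.33, 0.946 and 0.857 with calcipotriol. H2-Eb1 per H2-Ab1 was 0.451, 0.330, 0.379 and 0.374 against 0.475, 0.514, 0.461 and 0.493, and H2-DMb1 per H2-DMa was 0.641, 0.680, 0.794 and 0.737 against 1.07, 1.54, 1.16 and 1.12. In these 3 ratios all calcipotriol tumors, replicate 1 included, were above all EtOH tumors (two-sided exact permutation p = 0.0286 each, the smallest possible, and 0.0571 after Benjamini-Hochberg adjustment over the 6). None of the 3 passed that adjustment, and the ratios were chosen after the values were known. The H2-DMb1 to H2-DMa ratio is also limited by the Brd2 overlap and by the uncertain split of reads with H2-DMb2. H2-DMa per H2-Ab1 (exact permutation p = 0.543) and H2-Ab1 per Ciita (exact permutation p = 0.0857) overlapped between the groups.

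**Figure D3:**
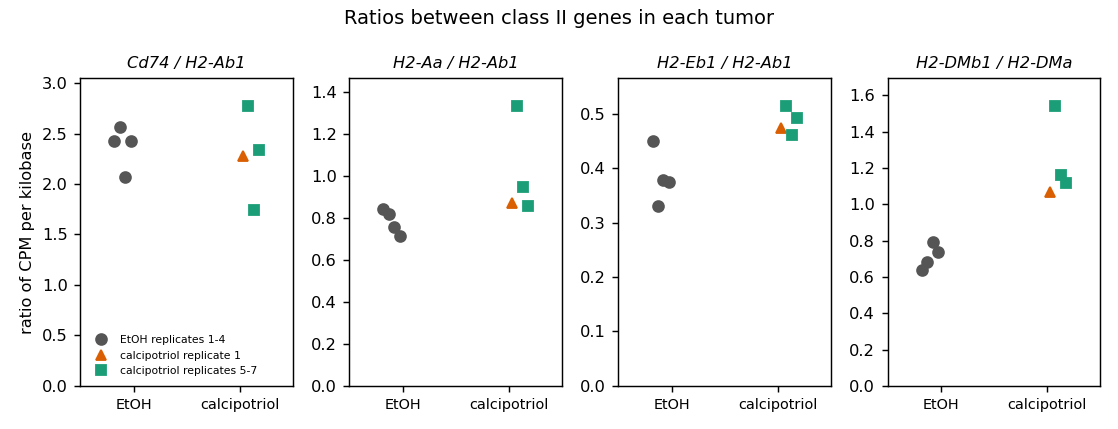
Ratios of CPM per kilobase in each tumor for Cd74, H2-Aa and H2-Eb1 over H2-Ab1 and for H2-DMb1 over H2-DMa, with axes from 0 and the symbols for EtOH (circles), calcipotriol replicate 1 (triangles) and replicates 5 to 7 (squares). The H2-DMb1 to H2-DMa ratio is 0.641 to 0.794 with EtOH and 1.07 to 1.54 with calcipotriol, while Cd74 per H2-Ab1 overlaps.

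Across the 8 tumors, log2 CPM of the members was compared with the mean standardized log2 CPM of H2-Aa, H2-Ab1, H2-Eb1 and Cd74, as a description. The correlation was 0.956 for H2-DMa, 0.942 for H2-DMb1, 0.753 for Ciita, 0.612 for H2-DMb2 and 0.418 for H2-Ob, the last 3 being genes of few counts. Without calcipotriol replicate 1 these values were 0.957, 0.925, 0.638, 0.475 and 0.687. The genes outside the pathway whose pattern was most like it were Mpeg1 (r = 0.980), Tmem119 (0.975), Gnpda1 (0.975), Runx3 (0.972) and Sharpin (0.970), over n = 8 tumors that share libraries and depth. In the 7 tumors without that replicate these r values were 0.967 to 0.988. Mpeg1, which encodes perforin-2 of phagocytes, was at 121, 136, 107 and 101 CPM with EtOH and 143, 48.8, 27.9 and 36.7 CPM with calcipotriol. Tmem119, best known as a marker of microglia, was at 46.4, 43.5, 46.3 and 45.7 CPM with EtOH and 99.8, 19.2, 15.7 and 14.9 CPM with calcipotriol. In both, replicate 1 was the highest tumor and the other 3 calcipotriol tumors were the lowest. For Mpeg1, replicate 1 (143 CPM) was close to EtOH replicate 2 (136 CPM). Both genes were picked for their likeness to class II, so the shared order follows from that choice.

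Interferon-γ is the classical inducer of Ciita, and its transcripts were most frequent in the tumor with the most class II. Ifng had 0 counts in each EtOH tumor, where 3 counts would be 0.122 to 0.146 CPM, and 34, 3, 7 and 9 counts in calcipotriol replicates 1, 5, 6 and 7. It had too few counts to be tested. The 12 interferon-γ response genes summed to 103 to 184 CPM with EtOH, 1030 CPM in calcipotriol replicate 1 and 238 to 275 CPM in the other 3. All 12 had positive log2 fold changes, and 1 passed both thresholds. This was Iigp1, an interferon-inducible GTPase, at 8.61, 12.8, 16.6 and 16.9 CPM with EtOH and 217, 47.5, 50.1 and 54.6 CPM with calcipotriol (log2 fold change 2.75 ± 0.509 SE, edgeR adjusted p = 0.0226). Without replicate 1, Iigp1 (1.88, adjusted p = 0.00178) and Gbp2 (1.05, adjusted p = 0.0295) passed, and 9 of the 12 were positive. In replicates 5 to 7 the sum of these genes was thus above that of the EtOH tumors. Most class II genes were below the EtOH tumors in the same replicates. Much of the higher sum was Gbp2 (mean 37 CPM with EtOH and 76.8 CPM in replicates 5 to 7) and Iigp1 (13.7 and 50.8 CPM). Cxcl10, Gbp7 and Cd274 were not higher, with log2 fold changes of -0.21, -0.11 and -0.02 without replicate 1. The part of interferon-γ in the class II levels was not tested. Of 11 tested genes of the axis from the interferon-γ receptor to Ciita, 0 passed both thresholds and 8 had an unadjusted p under 0.05. Irf8, a myeloid transcription factor, was lower at an adjusted p of 0.0333 (edgeR) but by 0.81 on the log2 scale, short of the fold threshold. Without replicate 1, Spi1, which encodes PU.1 of myeloid and B cells, was lower past both (-1.61, adjusted p = 0.00313).

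The MHC class I pathway, which presents cytosolic peptides to CD8+ T cells, did not follow class II downward. Of its 12 genes, 10 had positive log2 fold changes (median 0.61, against 0.02 over all genes and -0.52 for the 9 class II members), and without replicate 1 the medians were 0.12 for class I and -2.16 for class II. Nlrc5, the class I counterpart of Ciita, passed both thresholds upward, at 4.96, 4.87, 3.93 and 4.85 CPM with EtOH and 33.1, 14.5, 15.3 and 13.8 CPM with calcipotriol (log2 fold change 2.04 ± 0.306 SE, edgeR adjusted p = 0.0105, and 1.64, adjusted p = 0.00207 without replicate 1). Its groups did not overlap, and replicate 1 was again the highest tumor. The summed class I level was 2710 to 2920 CPM with EtOH, 6870 CPM in replicate 1 and 2790 to 3070 CPM in replicates 5 to 7. H2-K1 was at 321, 281, 332 and 354 CPM with EtOH and 1450, 427, 537 and 499 CPM with calcipotriol (adjusted p = 0.105 from edgeR), with reads that near-identical class I genes may share. The summed CPM of H2-Aa, H2-Ab1, H2-Eb1 and Cd74 per 100 CPM of H2-K1, H2-D1 and B2m was 34.9 to 48.0 with EtOH, 28.2 in replicate 1 and 4.21 to 9.36 in replicates 5 to 7. On this scale replicate 1 was below all EtOH tumors.

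**Figure D4:**
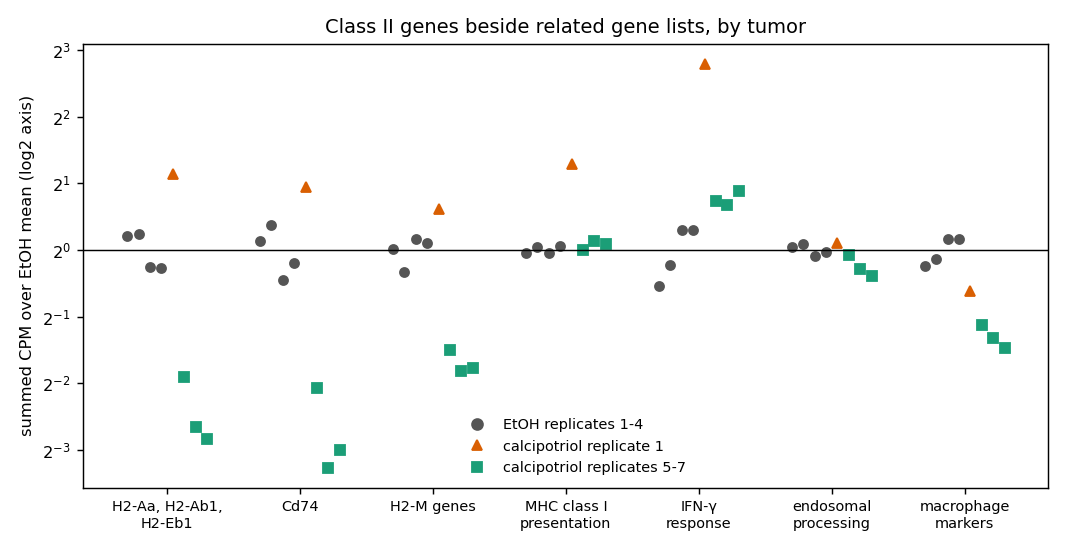
Summed CPM of each gene list in each tumor over the list's EtOH mean, on a log2 axis, with EtOH as circles, calcipotriol replicate 1 as triangles and replicates 5 to 7 as squares. In replicates 5 to 7 the classical chains are at 0.139 to 0.267 of the EtOH mean, class I at 0.994 to 1.09, the interferon-γ response at 1.59 to 1.84 and macrophage markers at 0.361 to 0.460. Replicate 1 is at 2.19, 2.45, 6.90 and 0.650 of the EtOH mean for the same lists.

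Endosomal proteases cut the invariant chain and antigens before loading. Of 13 tested genes of endosomal processing and class II turnover, 0 passed both thresholds with all tumors (9 negative, 7 at an unadjusted p under 0.05). Ctss, the cathepsin that trims the invariant chain in myeloid and B cells, was at 631, 732, 727 and 735 CPM with EtOH and 699, 484, 316 and 304 CPM with calcipotriol (log2 fold change -0.65, adjusted p = 0.199 from edgeR). The low tumors were the same 3 as for class II. Without replicate 1, Ifi30 and Cd83 were lower past both thresholds. Ifi30, the thiol reductase GILT of antigen processing, was at 161, 153, 212 and 214 CPM with EtOH and 147, 64.7, 59.7 and 64.2 CPM with calcipotriol (-1.56 without replicate 1, adjusted p = 0.000796, and -1.14 with it, adjusted p = 0.0638). Cd83, which protects surface class II from turnover, was at 18.0, 22.1, 10.2 and 14.5 CPM with EtOH and 11.4, 0.411, 1.20 and 0.339 CPM with calcipotriol (-4.64 without replicate 1, adjusted p = 0.000953, and -2.26 with it, adjusted p = 0.229).

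Presenting cells also carry costimulatory molecules beside class II. Of 5 tested genes (Cd80, Cd86, Icosl, Tnfsf4 and Cd40), 0 passed with all tumors and 1 had an unadjusted p under 0.05. Without replicate 1, Cd86, a ligand of CD28, and Icosl, the ligand of ICOS, were lower past both (-1.72, adjusted p = 0.0131, and -2.66, adjusted p = 0.00936). In replicate 1 itself both lay within the EtOH range, Cd86 at 8.30 CPM and Icosl at 7.31 CPM. Cd80, Cd40 and Tnfsf4 passed in neither fit, with log2 fold changes of 0.55, -0.39 and -0.34 with all tumors and 0.43, -1.26 and 0.08 without replicate 1. On the T cell side, 0 of 8 tested genes passed with or without replicate 1, with 0 at an unadjusted p under 0.05 in either fit. Cd4 itself, the coreceptor for class II, had 0, 6, 6 and 1 counts with EtOH and 26, 12, 10 and 9 with calcipotriol, too few to be tested, with groups that did not overlap. The summed level of the T cell list was 5.16 to 9.78 CPM with EtOH, 18.0 CPM in calcipotriol replicate 1 and 7.38 to 7.95 CPM in the other 3. Lag3 had the highest level of this list in every tumor and weighs heavily in that sum. Its mean was 4.3 CPM with EtOH and 2.84 CPM in replicates 5 to 7 (log2 fold change -0.34 with all tumors). Of the 8 tested genes, 6 had positive log2 fold changes with all tumors and 4 without replicate 1. The sum therefore does not show how the less abundant genes of the list changed.

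Markers of macrophages and monocytes moved with the class II genes in part. Of 14, 12 had negative log2 fold changes, and Csf1r, Adgre1 and Lyz2 were lower and Cd163 higher past both thresholds. Without replicate 1, 9 were lower and Cd163 was higher. Csf1r, the macrophage growth factor receptor, was at 363, 372, 328 and 308 CPM with EtOH and 220, 74.2, 72.4 and 72.2 CPM with calcipotriol (log2 fold change -1.64 ± 0.35 SE, edgeR adjusted p = 0.0374). Unlike class II, it was below the EtOH tumors in replicate 1 too. The summed marker level was 3690 to 4890 CPM with EtOH, 2830 CPM in replicate 1 and 1570 to 2000 CPM in replicates 5 to 7. None of the 14 markers was at 0 in all tumors.

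Class II relative to these markers depended on the marker. Per 100 CPM of the 14 markers, the 4 genes H2-Aa, H2-Ab1, H2-Eb1 and Cd74 together had 22.6, 23.2, 11.9 and 13.0 CPM with EtOH and 53.5, 9.30, 5.46 and 6.16 CPM with calcipotriol. Replicates 5 to 7 stayed below the EtOH tumors on this scale, as they did per 100 CPM of Cd68 (687 to 1440 against 238 to 297) and of C1qa, C1qb and C1qc (36.1 to 71.8 against 12.5 to 26.1). On 3 further scales they overlapped with the EtOH tumors. Per 100 CPM of Csf1r the values were 176 to 248 with EtOH and 132 to 250 in replicates 5 to 7, per 100 CPM of Adgre1 720 to 1360 and 387 to 758, and per 100 CPM of Lyz2 29.3 to 61.9 and 24.8 to 30.4. Replicate 1 was above all other tumors on these 3 scales, at 688, 2920 and 222. The part of macrophage number in the class II levels was not tested.

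Dendritic cell markers were sparse. Of 11, 7 were tested and 0 passed with all tumors, with 3 at an unadjusted p under 0.05. The defining genes Flt3 (0 to 28 counts per tumor) and Xcr1 (1 to 27 counts) were not tested. Itgax, which encodes CD11c, was at 8.76, 11.8, 3.93 and 4.85 CPM with EtOH and 16.7, 1.55, 1.63 and 1.57 CPM with calcipotriol (-0.45, adjusted p = 0.813 from edgeR, and -2.21, adjusted p = 0.0179 without replicate 1). Clec10a, a lectin of macrophages and dendritic cells, went the other way, at 1.02, 1.02, 5.02 and 6.70 CPM with EtOH and 9.97, 13.8, 25.3 and 23.8 CPM with calcipotriol (2.40, adjusted p = 0.0653 from edgeR, and 2.60, adjusted p = 0.034 without replicate 1). Zbtb46, a transcription factor of conventional dendritic cells, was at 1.36, 2.14, 1.66 and 1.72 CPM with EtOH and 5.05, 2.92, 2.74 and 4.32 CPM with calcipotriol, without overlap (1.13, adjusted p = 0.148 from edgeR, and 0.95, adjusted p = 0.226 without replicate 1). The summed dendritic list was 291 to 395 CPM with EtOH and 188 to 291 CPM with calcipotriol, but most of it was Fscn1, which encodes the actin-bundling protein fascin (276 to 370 CPM and 167 to 253 CPM). The other 10 genes summed to 15.2 to 25 CPM with EtOH and 21.1 to 37.8 CPM with calcipotriol. Of the Langerhans cell markers, Cd207 was at 0 in all tumors. The part of dendritic cell number was not tested.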

How the data were processed

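Total RNA of 8 tumors was sequenced after NEBNext Ultra library preparation. The authors deposited expected counts per gene, that is, an estimated count that is not scaled between tumors, and the submitters' processing notes name STAR 2.5.3, RSEM 1.3.1, DESeq2 1.24.0 and GRCm38. The annotation release is not given in the sources used here. Between 4.2% and 6.22% of values per tumor were not whole, and all were rounded, the only departure from tests planned for counts. RSEM divides reads that map to several genes by estimation, so near-identical genes can share counts.

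The 4 calcipotriol and 4 EtOH tumors were grouped by label and compared with the quasi-likelihood F test of edgeR 4.0.16 under R 4.3.3, after filterByExpr and TMM, with Benjamini-Hochberg adjustment over all 14458 genes tested. Standard errors are the log2 fold change divided by the root of F. Thresholds were an adjusted p of 0.05 and a log2 fold change of 1, with a prior count of 2 in log2 CPM. Totals were 19685397 to 25084715 counts, and a floor of 3 counts covers counting error only. No tumor pair of a group agreed within sampling noise. Alternatives were DESeq2 1.42.0 (size factors and test), upper-quartile scaling, limma-voom (limma 3.58.1), other count filters, no fold minimum, summed H2-DMb counts, removed erythroid genes, truncated counts and each tumor left out. Scripts were tested on simulated data. Symbols matched for 52081 of 55414 identifiers. Positions are from GENCODE M21 and sequences from RefSeq, read with Python 3.11.15.

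The members, the 25 gene lists and the tests were chosen with earlier results of these data known. Named were the 10 members, the genes of a list past both thresholds, up to 4 further genes of a list by mean CPM where a result turns on it, and the 5 genes most like H2-Aa, H2-Ab1, H2-Eb1 and Cd74. Ctss, Rfx5, Gbp2, Ifng, Irf8, Cd4, Itgax, Clec10a, Zbtb46, Flt3, Xcr1, Cd207, H2-K1 and the B cell genes include names chosen after their values were seen. The values of 1 marker gene are not reported here.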

Additional observations from a re-analysis of the deposited data

Results flagged for a closer look

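Dixon's test for an outlying value at the 5% level was applied to 24 sets of 4 values, as CPM or counts without logs. About 1.2 would be flagged by chance if the values were normally distributed. A high value stands out more on this scale than on a log scale, on which the test was not run. The test flagged 8, all in the calcipotriol group and all for replicate 1. These 8 are not independent because the genes vary together, and how many depend on the scale was not tested. Replicate 1 was at 240 CPM for H2-Aa (next highest 37.3), 295 CPM for H2-Ab1 (30.1), 193 CPM for H2-Eb1 (21.3), 784 CPM for Cd74 (97.1), 41.4 CPM for H2-DMa (8.27), 37.5 CPM for H2-DMb1 (10.8) and 6.59 CPM for Ciita (1.36). The sum of H2-Aa, H2-Ab1, H2-Eb1 and Cd74 was 1510 CPM there against 186 CPM in the next tumor. H2-DMb2, H2-Oa, H2-Ob, the total counts and the EtOH group were not flagged. The labels give no batch or other difference for this tumor, and the cause was not tested.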

How the results depend on the processing

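No paired analysis was possible because the groups share only replicate number 1, and nothing ties those tumors together. The number of members past both thresholds was 0 under each setting listed with the methods but the fit without calcipotriol replicate 1, where it was 6 (range 0 to 6 with each tumor left out). In alternatives added after the data were seen, it was also 6 without that tumor by DESeq2, by limma-voom and with summed H2-DMb counts, and 5 to 6 with a further tumor left out, where H2-DMb1 was lost without calcipotriol replicate 6 or 7. The number of all genes past both thresholds was 292, 458 with no filter, 644 by the DESeq2 test and 110 to 642 with each tumor left out, lowest without calcipotriol replicate 6 and highest without calcipotriol replicate 1. The log2 fold change of Ciita turned negative by limma-voom (-0.26), without EtOH replicate 2 (-0.10), without EtOH replicate 3 (-0.12) and without calcipotriol replicate 1 (-1.08), with a range of -1.08 to 0.44 over the tumors left out, and the cause was not tested. No other member changed sign under the alternatives run. DESeq2 gave neither a p nor an adjusted p for H2-Ab1, H2-DMa and H2-Eb1 with all 8 tumors, so its count of 0 does not cover them. With no filter, H2-Oa had a log2 fold change of -1.24 (adjusted p = 0.607 from edgeR). The fits without replicate 1 rest on 3 calcipotriol tumors, and counts under about 30 per tumor (H2-Oa, H2-Ob) limit what those genes can show.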
